A study of Mus musculus with 6 samples.

Results

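Tumorspheres of the KMF line contained transcripts of 28 protein-coding genes that were at or near 0 in ID8 tumorspheres. These 28 were taken from the 7320 genes of the deposited table, 6901 of them protein coding. A gene was a member when every ID8 library held at most 3 raw counts and every KMF library at least 15. Of 38 protein-coding genes that met these thresholds, 10 were left out by a rule on names (5 single genes and 32 name beginnings). They were Tek, Ndufa4l2, Elf3, Limch1, Rbfox3 and members of the Slc, Kcn, Serpin and Il families. A further 5 genes that met the thresholds were antisense or lincRNA genes and were left out for their type. The same thresholds turned around, with KMF at or under 3 and ID8 at 15 or more, were met by 100 protein-coding genes without the excluded names. Because the raw counts of both lines chose the members, the difference between the lines is given here as a description and was not tested.

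ID8 is a transformed line of ovarian surface epithelial cells from C57Bl6 mice, and KMF (ID8-IP in the labels) was recovered from the ascites of mice carrying ID8 cells. Both were grown for 5 days, untreated, as tumorspheres in serum-free medium, and poly-A RNA was sequenced from 3 libraries per line. ID8 replicates 1, 2 and 3 were at passages 23, 24 and 35, and KMF replicates 1, 2 and 3 at passages 14, 17 and 22. Every KMF library was thus at a lower passage than every ID8 library, so line and passage cannot be told apart. Each line is 1 cell line, so replicates are cultures of that line, and passage is the only difference between them that the labels give. Library totals lay between 23108407 and 33212313 fragments on genes, of which the listed genes held 52.8% to 55.9%. Counts are given below in the order of replicates 1, 2 and 3. Levels of single genes are also given in FPKM (fragments scaled to gene length and library total), as mean ± SD over the 3 libraries of KMF unless ID8 is named.

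The members have little in common by function. Several belong to families that are best known from other tissues: Ly6 proteins are small membrane-anchored proteins of leukocytes and stem cells, SPRR proteins and kallikreins are made in stratified epithelia, and BMPs are secreted ligands that act through SMAD proteins on targets such as the Id genes. GATA, TLX, ONECUT and NKX proteins bind DNA and direct the formation of organs in the embryo. Genes of this sort are silent in most adult cells, and their promoters differ in how many CpG dinucleotides, the sites of DNA methylation, they hold.

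Levels of the members in KMF were low for the most part. The mean KMF level ran from 0.13 FPKM for Prdm16 to 27.5 FPKM for Ly6c1, with a median of 0.751 FPKM against 8.50 FPKM over all listed genes. Of the 28 members, 2 were above 10 FPKM, 11 were above 1 FPKM and 17 were at or under 1 FPKM. Summed over the members, the 3 ID8 libraries held 77 counts and the 3 KMF libraries 8339, which is 0.0104% of the KMF fragments. In bulk libraries like these, a transcript made by few cells and a transcript made at a low level by all cells cannot be told apart. In 5 members, Tlx2, Mroh4, C130073F10Rik, Onecut3 and Klk10, every ID8 library was at 0. Against the floor of 3 counts over the group of 3 ID8 libraries, these were at least 20.2-fold (Klk10) to at least 133-fold (Tlx2) higher in KMF. The other 23 had between 1 and 7 ID8 counts in all, and their ratios of summed counts per fragment ran from 14.5 for Clec3b to 498 for Gata5. These ratios rest on few ID8 counts: without 1 ID8 library, 15 of the 23 moved by over 1.5 times or had no ID8 count left (12 of them). Without 1 KMF library, 0 of the 23 did so. Over all 6 libraries left out in turn, the ratios that could be formed ran from 9.10 to 632.

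**Figure D1:**
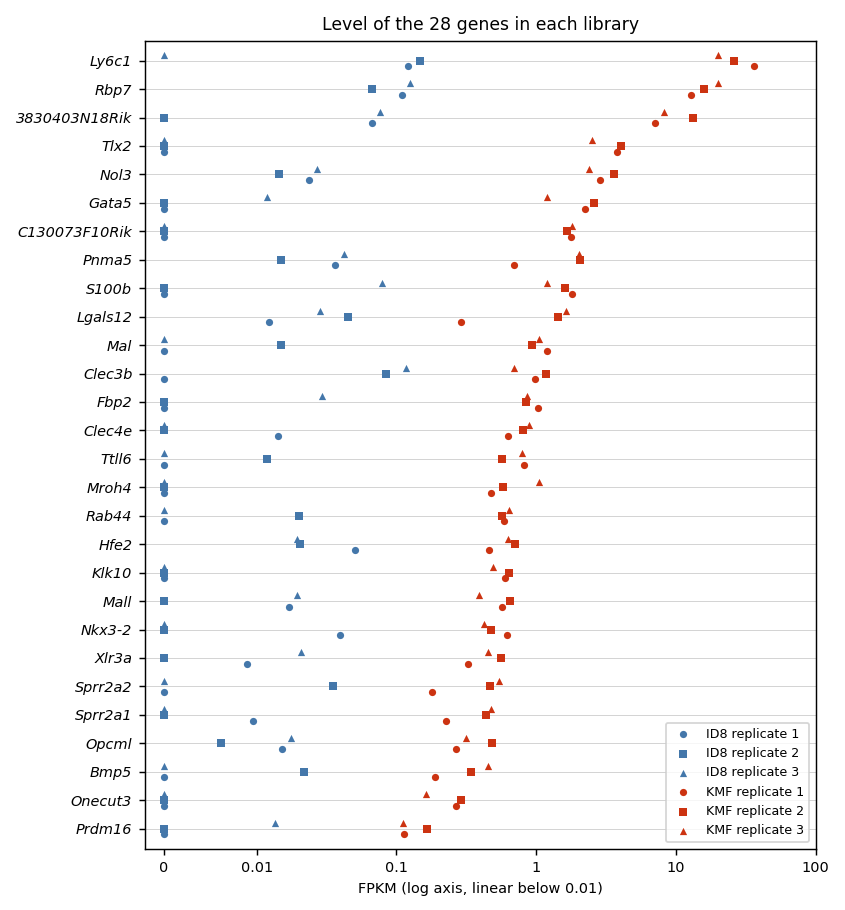
Level of each of the 28 genes in FPKM (log axis, linear below 0.01) in the 3 ID8 libraries (blue) and the 3 KMF libraries (red), with 1 symbol per replicate and genes ordered by mean KMF level. ID8 symbols sit at or near 0, and mean KMF levels run from 0.13 FPKM (Prdm16) to 27.5 FPKM (Ly6c1).

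The reference promoter sequences show 1 feature that the choice of members did not use, the number of CpG dinucleotides. Windows of 300 bases, from 250 bases before to 50 bases after the RefSeq start on GRCm38.p6, are shown for both members above 10 FPKM, for a member from each of 2 local clusters described below, and for Gata5 as a CpG-rich contrast. Each is written 5′ to 3′ on the strand of the gene, with every CpG in capitals. In the order shown, the windows lie on the minus strand at chr15:75048788-75049087, on the minus strand at chr4:149454919-149455218, on the minus strand at chr4:101893740-101894039, on the plus strand at chr3:92215585-92215884 and on the minus strand at chr2:180334630-180334929.
Ly6c1: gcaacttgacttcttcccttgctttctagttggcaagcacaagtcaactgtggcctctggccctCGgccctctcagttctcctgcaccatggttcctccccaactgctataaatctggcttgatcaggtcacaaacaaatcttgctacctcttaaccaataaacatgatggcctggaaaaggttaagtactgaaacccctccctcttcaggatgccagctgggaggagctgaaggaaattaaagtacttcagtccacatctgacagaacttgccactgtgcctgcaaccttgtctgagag
Rbp7: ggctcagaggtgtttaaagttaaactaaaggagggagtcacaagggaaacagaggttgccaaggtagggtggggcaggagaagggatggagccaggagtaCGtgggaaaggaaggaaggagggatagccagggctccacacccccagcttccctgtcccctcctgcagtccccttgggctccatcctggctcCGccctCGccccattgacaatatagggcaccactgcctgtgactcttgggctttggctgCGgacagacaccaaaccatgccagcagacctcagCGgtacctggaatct
C130073F10Rik: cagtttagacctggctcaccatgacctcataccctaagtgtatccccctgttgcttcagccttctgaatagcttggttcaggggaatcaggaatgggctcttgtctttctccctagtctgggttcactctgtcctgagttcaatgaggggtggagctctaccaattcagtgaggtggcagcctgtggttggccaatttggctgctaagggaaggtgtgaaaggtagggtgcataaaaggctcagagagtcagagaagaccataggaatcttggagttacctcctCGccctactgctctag
Sprr2a1: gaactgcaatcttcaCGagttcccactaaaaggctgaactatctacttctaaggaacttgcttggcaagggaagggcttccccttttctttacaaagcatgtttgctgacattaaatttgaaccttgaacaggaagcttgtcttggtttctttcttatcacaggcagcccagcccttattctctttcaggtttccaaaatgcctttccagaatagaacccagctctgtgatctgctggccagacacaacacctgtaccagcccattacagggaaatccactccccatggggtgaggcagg
Gata5: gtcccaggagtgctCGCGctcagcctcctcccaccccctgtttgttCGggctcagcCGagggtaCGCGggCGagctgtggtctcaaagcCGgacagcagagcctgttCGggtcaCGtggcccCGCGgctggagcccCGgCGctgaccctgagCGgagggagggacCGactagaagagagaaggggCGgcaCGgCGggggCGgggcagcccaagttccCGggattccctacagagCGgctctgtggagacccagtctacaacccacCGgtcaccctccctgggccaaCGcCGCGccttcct

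The Ly6c1, C130073F10Rik and Sprr2a1 windows each hold 1 CpG, the Rbp7 window holds 5, and the Gata5 window holds 26. As the ratio of CpG observed to that expected from base composition, these are 0.0575, 0.0516, 0.0625, 0.197 and 0.714. The Sprr2a2 window, whose RefSeq start lies 34727 bases from the start listed for that gene in the deposited table, is the same as that of Sprr2a1 at 300 of 300 positions. Reference windows were held for 20 of the 28 members, which is 71.4%. That is under the 80% needed for a check over the whole set, so the check on these windows is void. The windows' median ratio of 0.288, against 0.754 for 5367 other listed genes and 0.384 for all 32851 windows of the table, is a description of those 20 members alone.

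A window that all members have was therefore added after the data had been seen, the first 300 bases of the longest annotated protein-coding transcript. There the 28 members had a median CpG ratio of 0.366, and 6 of them (21.4%) were at or above 0.6. Those 6 were Onecut3 (0.869), Tlx2 (0.812), Nkx3-2 (0.786), Mal (0.659), Prdm16 (0.655) and Mall (0.636). So 4 of the 5 homeobox, GATA and PRDM genes among the members were CpG rich, Gata5 lying just below at 0.564. The lowest ratios were those of Mroh4 (0.0436), Clec3b (0.085) and Xlr3a (0.102). The 100 genes that met the mirrored thresholds, off in KMF, had a median of 0.683, with 62% of them at or above 0.6. The other 6834 listed protein-coding genes had a median of 0.744, with 68.3% at or above 0.6. Listed genes of low level lay between these values and the members. Among 858 other listed genes at or under 1 FPKM in both lines the median was 0.534, with 44.5% at or above 0.6. These shares describe reference sequence, and DNA methylation was not analysed here.

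**Figure D2:**
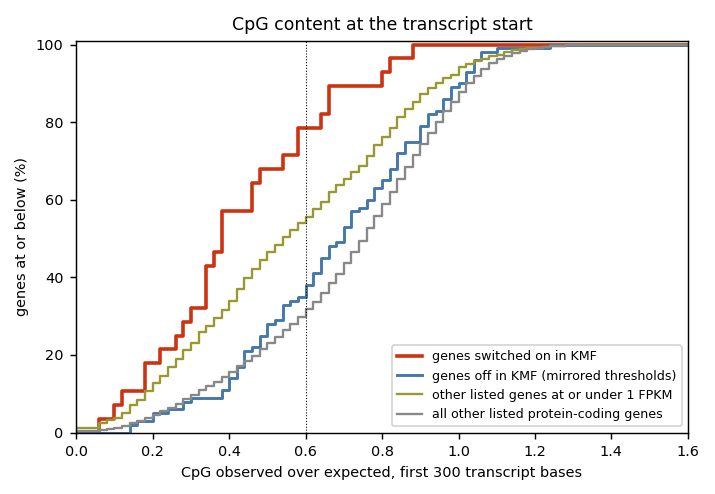
Cumulative percentage of genes (vertical axis) at or below each ratio of observed to expected CpG in the first 300 transcript bases (horizontal axis), for the 28 genes switched on in KMF (red), 100 genes off in KMF (blue), other listed genes at or under 1 FPKM (olive) and all other listed protein-coding genes (grey). The dotted line marks a ratio of 0.6, reached by 21.4% of the red set, 62% of the blue, 44.5% of the olive and 68.3% of the grey.

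In the 20 promoter windows, 9 motifs were searched on both strands. TATAAA was found in 3 members (15%), among them Ly6c1 at 143 bases before the start and Clec4e at 29 bases before it, in 13.6% of all windows and in 7.66% of those of other listed genes, which are given second from here on. CCAAT was found in 9 members (45%), against 37.4% and 39.8%, with 4 matches in Xlr3a, 3 in Opcml and pairs of matches in C130073F10Rik, 3830403N18Rik and S100b. AGGAAG, the core of many ETS factor sites, was found in 10 members (50%) against 35.4% and 32.1%, and 2 of the 10 are the identical windows of Sprr2a1 and Sprr2a2. GGGCGG, bound by Sp1, was found in 5 (25%) against 35.7% and 66.0%. The hypoxia motif ACGTG was found in 6 (30%) against 19.6% and 24.6%, including Gata5 and Fbp2, where it lies inside the E-box. The E-box searched was CACGTG, in these 2 members (10%) against 7.15% and 10.1%. TGANTCA, bound by AP-1, was found in Fbp2 alone (5%) against 7.81% and 5.12%, and AGATAA, bound by GATA factors, in Nkx3-2 alone (5%) against 11.2% and 5.87%. ATCAAAG, bound by TCF and LEF factors, was in 0 of the 20 windows against 3.73% and 2.44%. A match is a string of letters and not a site, and with 20 windows 1 member is 5%.

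Ly6c1 (ENSMUSG00000079018, chromosome 15, 75044018 to 75048830) codes for a GPI-anchored Ly6 protein known as a surface marker of monocytes. It had 727, 505 and 565 counts in KMF and 3, 3 and 0 in ID8. The KMF level was 27.5 ± 8.31 FPKM (SD, n = 3), the highest of the members. The ratio of KMF to ID8 was 297, with a 95% interval of 136 to 811 that covers counting error only. Rbp7 (ENSMUSG00000028996, chromosome 4, 149449687 to 149454978), a cellular retinol-binding protein, followed with 188, 227 and 409 counts against 2, 1 and 2, and 16.2 ± 3.52 FPKM (SD, n = 3). Both genes were thus clear in every KMF library, and the order of the libraries differed between them, with KMF replicate 1 highest for Ly6c1 and lowest for Rbp7.

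Ly6c1 did not stand alone on chromosome 15. Mroh4 (chromosome 15, 74606029 to 74636353), a HEAT-repeat protein gene with 40, 48 and 125 counts in KMF and 0 in every ID8 library, has its midpoint 425 kb from that of Ly6c1. The span between their outer ends, 443 kb, holds 21 annotated protein-coding genes, of which 9 were listed. All 9 had a higher mean in KMF, which the thresholds ensure for the 2 members. The 6 fitted neighbours in the span were all higher, where 49.7% of all fitted genes were higher. Besides the 2 members, the 9 were Slurp1, Lypd2, Lynx1, Ly6a and Ly6e of the Ly6 family, 2300005B03Rik and the synaptic gene Arc. The other 12 were not analysed here. DNA gains on this chromosome and on chromosome 6 are among those the study describes for KMF, as are losses on chromosomes 8, 10 and 13. The study gives these as chromosome bands, and whether a member lies inside such a band was not examined here. Each of these chromosomes holds a member, and the part of gains and losses in the levels was not tested.

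Slurp1, a secreted Ly6 protein of epithelia, had 4, 6 and 8 counts in ID8 and 1333, 1692 and 1360 in KMF. Its log2 fold change was 7.98 ± 0.35 (SE, adjusted p = 2.96e-06 by edgeR). Ly6a, which codes for the stem cell antigen Sca-1, had 26, 27 and 42 counts in ID8 and 2844, 3244 and 2812 in KMF, which is 6.62 ± 0.29 (SE) as a log2 fold change. The KMF level of Ly6a was 121 ± 29.6 FPKM (SD, n = 3), above that of Ly6c1. Lypd2 missed the member thresholds by its ID8 counts of 5, 4 and 0, and had 122, 100 and 113 counts in KMF. For Lynx1, which modulates nicotinic acetylcholine receptors, 28, 17 and 8 counts in ID8 stood against 519, 517 and 435 in KMF.

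The span was not uniform. Ly6e, at 76.2 ± 4.10 FPKM in ID8 and 174 ± 29.8 FPKM in KMF (SD, n = 3 each), was already expressed in ID8 and its log2 fold change was 1.23 ± 0.13 (SE, adjusted p = 8.69e-05 by edgeR). Arc, with 15, 28 and 5 counts in ID8 and 39, 38 and 46 in KMF, changed by 1.37 ± 0.54 on the log2 scale (SE, adjusted p = 0.0356 by edgeR). The Arc call was lost in 7 of 12 alternatives, among them each fit without 1 KMF library and the fits without ID8 replicate 1 or 3, with adjusted p-values from 0.00532 to 0.111. Of 27 genes on the list of Ly6 and uPAR proteins, 8 besides Ly6c1 were listed and fitted, 6 higher in KMF and 2 lower. The higher ones were Slurp1, Lypd2, Lynx1, Ly6a and Ly6e of the span above, so the list largely repeats this locus, and Plaur. Outside the span, Plaur was at 0.80 ± 0.29 and Cd59a at -3.48 ± 0.14 (log2 fold change ± SE). The lowest of the 8 was Lypd6, on another chromosome, at -4.76 ± 0.80. The median of the 8 was 3.06, beside -0.23 over all fitted genes. For this and each later list, the shares over all fitted genes were 49.7% higher in KMF and 50.2% lower.

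**Figure D3:**
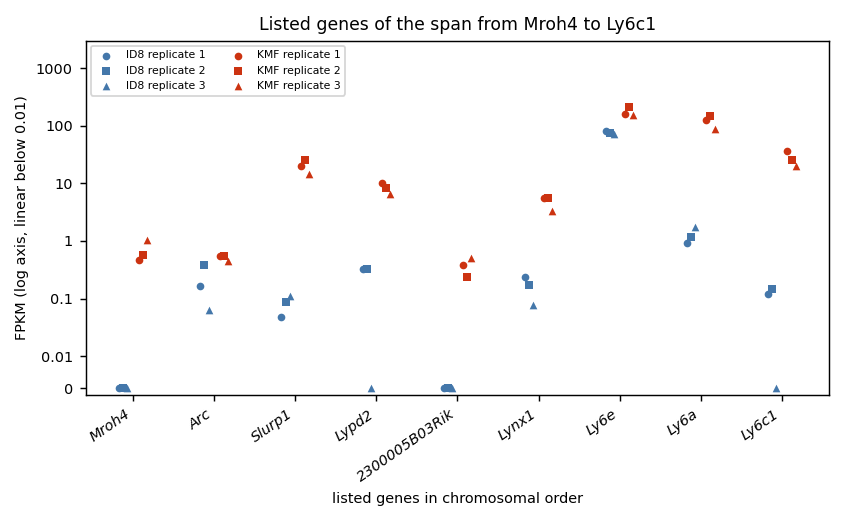
FPKM (log axis, linear below 0.01) of the 9 listed genes between Mroh4 and Ly6c1 in chromosomal order, with ID8 libraries in blue and KMF libraries in red and 1 symbol per replicate. Ly6e was at 76.2 FPKM in ID8, whereas Mroh4 and 2300005B03Rik were at 0 there, and Arc has the smallest gap between the lines relative to its spread.

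Part of the Ly6c1 signal could belong to relatives of near-identical sequence. Of the 1756 stretches of 100 bases in its annotated transcripts, 10.1% also occur in transcripts of another gene, Ly6c2 or Ly6a. Ly6c2 was not analysed here. The same comparison gave 92.8% for Sprr2a2, 92.5% for Sprr2a1, 24.4% for Xlr3a, 17.2% for Pnma5, 2.17% for 3830403N18Rik and 0.172% for Opcml, and 0 for the other 21 members. How the authors' counting split such reads was not stated.

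The members that bind DNA were all low, and 2 of them had 0 counts in all ID8 libraries. Tlx2 (ENSMUSG00000068327, chromosome 6, 83068324 to 83070225), a homeobox gene of the enteric nervous system, had 136, 141 and 126 counts in KMF and 0, 0 and 0 in ID8. That is 3.45 ± 0.824 FPKM (SD, n = 3) and at least 133-fold higher. Gata5 (ENSMUSG00000015627, chromosome 2, 180325133 to 180334699), a zinc finger factor of heart and gut development, had 174, 198 and 130 counts against 0, 0 and 1, and 2.02 ± 0.738 FPKM (SD, n = 3). The ratio of 498 for Gata5 rests on 1 ID8 count, and its 95% interval starts at 89.0. It was 313 without ID8 replicate 1, and without ID8 replicate 3 no ID8 count is left.

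Onecut3 (chromosome 10, 80494835 to 80517276), a cut homeobox gene, had 30, 32 and 26 counts in KMF and 0 in every ID8 library. Nkx3-2 (chromosome 5, 41761483 to 41764501), a homeobox gene of skeletal development, had 25, 19 and 24 against 2, 0 and 0. Prdm16 (chromosome 4, 154316125 to 154636873), which in brown fat and stem cells acts as a transcriptional coregulator, had 23, 33 and 32 against 0, 0 and 3. These last 3 were at 0.13 to 0.505 FPKM on average, so none of them reached 1 FPKM.

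Relatives of these factors that were already expressed in ID8 went the other way in part. Gata4 was at 98.5 ± 7.73 FPKM in ID8 and 47.3 ± 1.87 FPKM in KMF (SD, n = 3 each), the log2 fold change being -1.02 ± 0.08 (SE, adjusted p = 2.33e-05 by edgeR). Even in KMF, Gata4 was thus far above Gata5 per length. Gata2 had 28, 27 and 9 counts in ID8 and 154, 136 and 160 in KMF, the log2 fold change being 2.86 ± 0.39 (SE), and Gata3 was lowest of the fitted genes at -1.40 ± 0.35 (SE). Tlx3, a relative of Tlx2 that did not pass the filter, went from 58, 27 and 3 counts in ID8 to 0 in all KMF libraries. Of 34 genes on the list of GATA, NK, TLX, ONECUT and PRDM factors, 6 besides the members were fitted, 2 higher and 4 lower. Their median was -0.66.

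The BMP pathway has 2 members. Bmp5 (ENSMUSG00000032179, chromosome 9, 75775364 to 75900310), a secreted ligand, had 17, 30 and 57 counts in KMF and 0, 2 and 0 in ID8. Hfe2 (ENSMUSG00000038403, chromosome 3, 96525185 to 96529216), the hemojuvelin gene, whose product is a BMP co-receptor in iron control, had 22, 33 and 42 against 3, 1 and 1. Both were under 1 FPKM, at 0.326 ± 0.131 and 0.598 ± 0.125 (SD, n = 3 each), and both were lowest in KMF replicate 1. Of the 18 other fitted genes of the pathway list, which holds 46, 10 were higher in KMF and 8 lower, and their median log2 fold change was 0.77.

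Other BMP ligands were split, as were the secreted inhibitors. Among ligands, Bmp8a rose by 2.53 ± 0.31 and Bmp6 by 1.43 ± 0.17, while Gdf6 fell by 4.18 and Bmp2 by 0.99 (log2 fold change, ± SE where given). Among inhibitors, Fst, which codes for follistatin, rose by 2.72 ± 0.41 and Chrd, which codes for chordin, by 1.85 ± 0.12. Grem1, which codes for gremlin, had 1250, 1014 and 2218 counts in ID8 and 44, 37 and 71 in KMF, the log2 fold change being -4.87 ± 0.34 (SE, adjusted p = 1.77e-05 by edgeR). The target genes Id1 and Id3 rose by 1.29 ± 0.10 and 1.18 ± 0.26. The receptor genes Bmpr1b, Bmpr2 and Acvrl1 fell, by 1.07 ± 0.33, 0.51 ± 0.12 and 1.69 ± 0.24. Activity of the pathway was not tested.

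Among lipid, calcium and sugar-binding proteins, Nol3 is the exception in function, as it codes for an apoptosis repressor with a caspase recruitment domain. Nol3 (ENSMUSG00000014776, chromosome 8, 105276447 to 105281939) had 194, 238 and 227 counts in KMF and 2, 1 and 2 in ID8, at 2.95 ± 0.608 FPKM (SD, n = 3). On the opposite strand, exons of 4931428F04Rik cover 48.2% of its exonic bases, so reads of the 2 genes could mix if counting ignored strand. Of the 9 other fitted genes on the list of death domain and mitochondrial apoptosis genes, 4 were higher and 5 lower, from Pmaip1 at 1.50 ± 0.27 to Casp6 at -0.89 ± 0.10 (log2 fold change ± SE). Within 100 kb of Nol3, 3 of the 7 fitted neighbours were higher and 4 lower, and the adjoining Exoc3l fell by 1.21 ± 0.25.

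Rbp7, shown above as the second member by level, has 13 other fitted genes on its list of retinoid binding and metabolism. Of these, 5 were higher and 8 lower in KMF, where 50.2% of all fitted genes were lower, and their median log2 fold change was -1.93. The log2 fold change was -3.62 ± 0.48 (SE) for Rarb, a retinoic acid receptor gene, -3.15 ± 0.64 (SE) for Stra6, a retinol transporter gene, and -6.84 ± 0.92 (SE) for Aldh1a2, which makes retinoic acid. Rarb had 116, 72 and 142 counts in ID8 and 4, 4 and 19 in KMF, most of the latter in KMF replicate 3. The highest on the list was Adh7, a retinol dehydrogenase gene, at 1.72 ± 0.35 (SE).

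S100b (ENSMUSG00000033208, chromosome 10, 76253853 to 76261159), a calcium-binding protein gene used as a glial marker, had 63, 55 and 59 counts in KMF and 0, 0 and 3 in ID8. Of 6 others on the S100 list, 5 were higher and 1 lower, where 49.7% of all fitted genes were higher. S100a4 was highest at 2.0 ± 0.15 (SE), and S100pbp, a binding partner and no S100 protein itself, lowest at -0.82 ± 0.10. Fbp2 (chromosome 13, 62836884 to 62858400), the muscle fructose-bisphosphatase, had 32, 26 and 38 counts against 0, 0 and 1. Its list of sugar enzymes had 1 other gene higher, Pfkp at 2.08 ± 0.32, and 3 lower, with Pcx lowest at -2.02 ± 0.08 (log2 fold change ± SE).

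Among the members, 3 are lectins or have a lectin domain. Clec4e (chromosome 6, 123281789 to 123289870), the Mincle receptor of macrophages, had 71, 90 and 142 counts in KMF and 2, 0 and 0 in ID8. Lgals12 (chromosome 19, 7596660 to 7607193), a galectin of fat cells, had 19, 91 and 149 counts against 1, 3 and 2. Clec3b (chromosome 9, 123150946 to 123157430), the plasma protein tetranectin, had 23, 27 and 23 against 0, 2 and 3, and its ratio of 14.5 was the lowest of the 23 (95% interval 5.93 to 46.0). Without ID8 replicate 1 the ratio of Clec3b was 9.10, and without ID8 replicate 3 it was 24.5. Of 5 others on the list, 3 were higher and 2 lower, from Lgals2 at 1.12 ± 0.27 to Clec2d at -1.55 ± 0.19 (log2 fold change ± SE).

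Since Ly6c1 and Clec4e are known from blood cells, leukocyte markers were examined. Of 16 such markers, 2 were listed, Fcgr3 and Cd74, and both were lower in KMF, with summed levels of 4.43 to 9.16 CPM (counts scaled to the library total) in ID8 and 0.806 to 1.81 CPM in KMF. The other 14, among them Ptprc, were not analysed here. Of 12 endothelial markers 3 were listed, Esam, Kdr and Tie1. Their summed levels were 56.9 to 97.1 CPM in ID8 and 38.1 to 51.7 CPM in KMF. Nearly all of that sum was Esam, with 2758, 2335 and 1451 counts in ID8 and 1053, 1178 and 1249 in KMF. Kdr went from 2, 10 and 7 counts to 0 in all KMF libraries, while Tie1 had 3, 0 and 2 in ID8 and 5, 17 and 15 in KMF. Tek, a receptor gene of endothelium that met the thresholds and was left out by name, had 2 counts in each ID8 library and 5224, 3476 and 4284 in KMF. Of 10 fibroblast markers 4 were listed and all 4 were lower in KMF, with 234 to 284 CPM in ID8 and 38.3 to 69.2 CPM in KMF. The part of other cell types in the members' levels was not tested.

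For the labelled cell type itself, 9 of 12 markers of ovarian surface epithelium and mesothelium were listed. Msln was higher in KMF, at 91.6 ± 11.5 FPKM against 34.3 ± 4.70 FPKM (SD, n = 3 each). Wt1 was lower but still at 77.3 ± 13.2 FPKM in KMF (SD, n = 3). Of the other 7, 5 were lower, with log2 fold changes of -4.08 (Lrrn4), -4.07 (Bnc1), -3.88 (Upk3b), -3.55 (Cdh1) and -2.55 (Krt7). Upk1b was not called (edgeR adjusted p = 0.0628) and Muc16 was too low to be fitted. The median log2 fold change of the 8 fitted markers was -3.05.

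Mal (ENSMUSG00000027375, chromosome 2, 127633226 to 127656695) and Mall (ENSMUSG00000027377, chromosome 2, 127704386 to 127729932) code for related proteolipids of membrane rafts, and their midpoints lie 72.2 kb apart. Mal had 78, 60 and 96 counts in KMF and 0, 1 and 0 in ID8, and Mall had 27, 30 and 26 against 1, 0 and 1. Their transcripts share no stretch of 100 bases. The genes around them did not move as 1 block: Zfp661, 64.1 kb from Mal, fell by 0.93 ± 0.20, and Bub1, a mitotic checkpoint kinase gene 99.3 kb from Mall, rose by 2.23 ± 0.20 (log2 fold change ± SE). Of 10 others on the list of MAL and MARVEL proteins, 5 were higher and 5 lower, from Myadm at 1.39 ± 0.14 to the tight junction gene Marveld2 at -3.07 ± 0.73. The Marveld2 value rests on few counts, with 14, 24 and 22 in ID8 and 0, 1 and 6 in KMF.

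Sprr2a1 (chromosome 3, 92215835 to 92222485) and Sprr2a2 (chromosome 3, 92215920 to 92257298) code for small proline-rich proteins of the cornified envelope. Sprr2a1 had 19, 36 and 56 counts in KMF and 1, 0 and 0 in ID8. Sprr2a2 had 15, 38 and 64 against 0, 3 and 0. As the listed genes overlap and their transcripts and promoter windows are nearly or fully identical, the counts are best read as 1 locus and not as 2 separate events. Sprr2a3, their neighbour, had more of the signal, with 1, 7 and 4 counts in ID8 and 204, 351 and 359 in KMF, the log2 fold change being 6.23 ± 0.48 (SE, adjusted p = 2.63e-05 by edgeR).

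Klk10 (chromosome 7, 43781054 to 43785410), a kallikrein-related peptidase gene, was even among the KMF libraries, with 19, 20 and 22 counts, and had 0 in every ID8 library. With Klk10 and the Sprr genes on 1 list of cornified envelope and kallikrein genes, 6 others were listed and 4 were fitted. All 4 were called higher, where 99.8% of all fitted genes were called and 49.7% were called higher. One of them is Sprr2a3, from the locus of the Sprr members. Its transcripts hold 34.7% of the stretches of 100 bases of Sprr2a1 and 32.6% of those of Sprr2a2. Of the unfitted genes on the list, Ivl, which codes for involucrin, had 6, 15 and 10 counts in ID8 and 2, 1 and 0 in KMF. Krtdap had 0, 1 and 2 against 8, 9 and 7. Besides Sprr2a3, the called genes were Evpl and Ppl, which code for envoplakin and periplakin, at 1.71 ± 0.11 and 0.80 ± 0.14 (log2 fold change ± SE), and Sbsn at 0.38 ± 0.14 (edgeR adjusted p = 0.0248). The Sbsn call was lost in 5 of 13 alternatives, among them the fits without ID8 replicate 1, KMF replicate 1 or KMF replicate 3, with adjusted p-values from 0.00455 to 0.0899.

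The X chromosome holds 3 members, which have relatives in germ cells, lymphocytes or neurons. 3830403N18Rik (ENSMUSG00000031125, chromosome X, 56136572 to 56153498), which shares sequence with Xlr, had 172, 312 and 278 counts in KMF and 2, 0 and 2 in ID8. At 9.51 ± 3.25 FPKM (SD, n = 3) it was the third of the members by level. Pnma5 (chromosome X, 73033981 to 73037103), of the paraneoplastic Ma antigen family, had 46, 133 and 189 counts against 3, 1 and 3. Xlr3a (chromosome X, 73086293 to 73097095), an X-linked lymphocyte-regulated gene, had 29, 49 and 57 against 1, 0 and 2, and lies 56.2 kb from Pnma5. All 3 were lowest in KMF replicate 1. Gm773, 56.3 kb from 3830403N18Rik, had 0 counts in every ID8 library and 7, 7 and 13 in KMF, at least 8.93-fold higher.

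On the list of germline and Xlr genes, 4 others were listed and 3 fitted. Tex15, a gene of male germ cells that did not pass the filter, went from 9, 11 and 5 counts in ID8 to 0, 1 and 0 in KMF. Piwil2, a germline Argonaute gene of the piRNA pathway, had 8, 8 and 9 counts in ID8 and 3225, 2761 and 4447 in KMF. It missed the member thresholds by its ID8 counts but at 26.5 ± 1.88 FPKM in KMF (SD, n = 3) was close to Ly6c1 in level, and its log2 fold change was 8.71 ± 0.14 (SE, adjusted p = 5.88e-08 by edgeR). Tdrkh, also of that pathway, was higher at 0.73 ± 0.17, and Brdt, a testis bromodomain gene, lower at -1.72 ± 0.38 (log2 fold change ± SE). Of 15 genes for DNA methylation, 4 were listed and all 4 were higher, where 49.7% of all fitted genes were higher. They were Uhrf1 at 2.13 ± 0.23, the maintenance methyltransferase gene Dnmt1 at 1.19 ± 0.15, Mbd4 at 0.70 ± 0.23 and Mbd2 at 0.47 ± 0.08.

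C130073F10Rik (ENSMUSG00000046133, chromosome 4, 101890020 to 101893789) was the most even member, with 38, 35 and 55 counts in KMF, which is 1.75 ± 0.0792 FPKM (SD, n = 3), and 0 in every ID8 library. Of the other listed protein-coding genes within 100 kb of it, 2 were fitted, Gm12800 and Gm12794. Both were higher in KMF, where 49.7% of all fitted genes were higher. Gm12800 had 3, 10 and 1 counts in ID8 and 26, 31 and 54 in KMF, and Gm12794 had 2, 5 and 2 against 27, 32 and 54. B020004J07Rik had 0 in every ID8 library and 11, 10 and 12 in KMF, at least 10.9-fold higher. The pseudogene Gm12791, 16.2 kb away, had 0, 1 and 6 against 22, 15 and 27.

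Ttll6 (chromosome 11, 96133786 to 96165451), a tubulin polyglutamylase gene of cilia, had 67, 46 and 92 counts in KMF and 0, 1 and 0 in ID8. Of 6 other fitted genes on its list, 3 were higher and 3 lower, from Ttll7 at 1.01 ± 0.16 to Ttll13 at -2.18 ± 0.43 (log2 fold change ± SE). Agbl4, a deglutamylase gene that did not pass the filter, had 0, 3 and 0 counts in ID8 and 11, 15 and 10 in KMF. Rab44 (chromosome 17, 29135056 to 29148980), a large Rab GTPase gene of blood cells, had 57, 54 and 87 counts in KMF against 0, 2 and 0. The nearest listed protein-coding gene, Cdkn1a, which codes for the cell cycle inhibitor p21, had 6276, 7384 and 5583 counts in ID8 and 7979, 7460 and 9835 in KMF. Its log2 fold change was 0.42 ± 0.15 (SE, adjusted p = 0.0277 by edgeR), and the call was lost in 6 of 13 alternatives, among them the fits without ID8 replicate 1, ID8 replicate 3, KMF replicate 1 or KMF replicate 2, with adjusted p-values from 0.00108 to 0.0969.

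Opcml (chromosome 9, 27790775 to 28925410) codes for an IgLON cell adhesion protein that is known as a gene often silenced in human ovarian cancer. It had 42, 74 and 70 counts in KMF and 3, 1 and 3 in ID8, a level of 0.354 ± 0.112 FPKM (SD, n = 3). Of the 4 other IgLON genes, 0 were listed. Opcml, Pnma5 and Hfe2 were the members with counts in all 3 ID8 libraries besides Nol3, Rbp7 and Lgals12. For these 6, some reads were thus assigned to the gene in every ID8 library as well.

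Levels of the members were uneven among the KMF libraries. The ratio of the highest to the lowest KMF library, in CPM, had a median of 1.63 over the members and 1.20 over the 3564 listed genes with a higher mean CPM in KMF. Over the 10 genes that met the same thresholds but were left out by name it was 1.77, from 1.36 to 2.86, so the unevenness was not particular to the members. The members have far fewer counts than most of those genes, and the share of counting error in the ratio was not tested. The ratio ran from 1.09 for C130073F10Rik to 5.57 for Lgals12, whose CPM was low in KMF replicate 1 alone. It was above 2 in 7 members, and for 6 of these, Lgals12, Sprr2a2, Pnma5, Bmp5, Mroh4 and Sprr2a1, KMF replicate 1 was the lowest library. Gata5 was the seventh, with KMF replicate 3 the lowest. Scaled by TMM, 6 members were highest in KMF replicate 1, 13 in replicate 2 and 9 in replicate 3, and 12, 4 and 12 were lowest there. Among 3434 other genes called higher in KMF, 31.2%, 32.3% and 36.5% were highest in replicates 1, 2 and 3, and 39.6%, 30.7% and 29.7% were lowest there. Replicate 1 was thus lowest for 42.9% of the members and 39.6% of those other genes. Replicate 3 was also lowest for 42.9% of the members, against 29.7% of the other genes. Replicate 2 was highest for 46.4% against 32.3%, and lowest for 14.3% against 30.7%. These differences were not tested. With 1 library per passage, passage and library cannot be told apart.

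**Figure D4:**
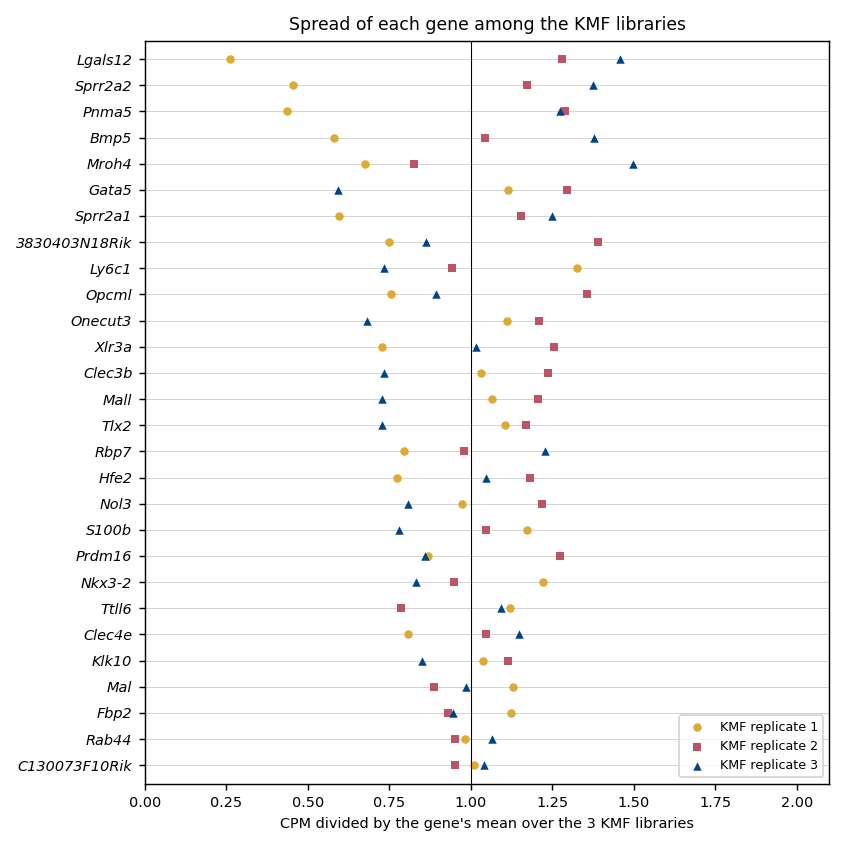
CPM of each member in each KMF library divided by the mean of the 3 KMF libraries (horizontal axis), with 1 symbol per replicate and genes ordered from the most even (C130073F10Rik, highest over lowest 1.09) to the most uneven (Lgals12, 5.57). Of the 7 genes with a ratio above 2, 6 are lowest in KMF replicate 1.

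All 28 members passed the filter on low counts and all 28 were called higher in KMF by edgeR. The table holds only genes that the authors had already called, so 99.8% of all 6967 fitted genes were called, 49.7% higher and 50.2% lower, and the members had been chosen on the same counts. All 3 KMF libraries lay above all 3 ID8 libraries for all 28 members, which the thresholds ensure, and for 46.3% of all listed genes. Nothing is read from these counts. For the same reason, the adjusted p-values given for relatives and neighbours of the members describe genes selected on these libraries.

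Members were found on 15 chromosomes. Within 500 kb of a member midpoint lay 143 other fitted protein-coding genes, all of them called, 76 higher in KMF and 67 lower. That is 53.1% higher, against 49.8% of all called genes. Without the 6 fitted neighbours in the span from Mroh4 to Ly6c1, it was 70 higher and 67 lower, or 51.1%. The share depended on the window, with 45 higher and 31 lower within 250 kb (59.2% higher) and 139 higher and 131 lower within 1000 kb (51.5% higher). Around Tlx2, 4 of the 5 fitted genes within 100 kb were lower, the lysyl oxidase gene Loxl3 most, at -2.09 ± 0.23, and Wdr54 was higher at 1.35 ± 0.24 (log2 fold change ± SE). Around S100b, 10 of the 11 fitted genes within 500 kb were lower, and the part of the DNA loss described for its chromosome was not tested. Around Hfe2, 11 of 15 were higher, though Txnip, next to Hfe2, fell by 0.54 ± 0.09. Near Clec3b, Exosc7 and Zdhhc3 rose by 0.86 ± 0.09 and 0.87 ± 0.08.

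The other neighbours called within 100 kb went both ways. Cables2 near Gata5, Lix1l near Hfe2, Rab28 near Nkx3-2 and Cbfb near Nol3 were higher by 0.33 to 0.66, and Fbxl8 and Slc9a5 near Nol3 by 0.84 and 1.67. Prmt2 near S100b, Atl3 near Lgals12, Dok1, Wbp1 and Ino80b near Tlx2, and Atp5g1 and Ube2z near Ttll6 were lower, by log2 fold changes of -0.29 to -0.77. Elmo3, D230025D16Rik and Lrrc29 near Nol3 had -1.10, -0.59 and -1.33. Nsdhl near Pnma5 was at 0.24 ± 0.09 (SE, adjusted p = 0.0287 by edgeR), a call lost in 9 of 13 alternatives, among them the fits without ID8 replicate 1, ID8 replicate 2 or KMF replicate 3, with adjusted p-values from 0.0253 to 0.184. On the opposite strand of Gata5, the antisense gene Gata5os, whose exons cover 7.87% of Gata5, had 0 counts in every ID8 library and 7, 3 and 4 in KMF, at least 4.63-fold higher. Exons of the antisense gene Gm26903 cover 46.7% of Bmp5, and B230104I21Rik covers 1.17% of Prdm16.

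**Figure D5:**
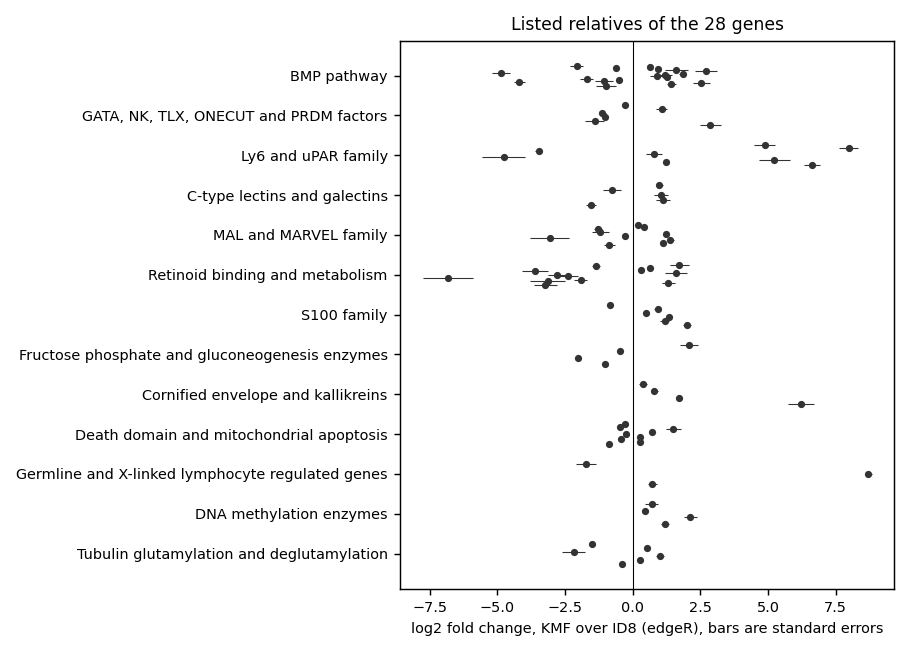
Log2 fold change of KMF over ID8 (horizontal axis) of each fitted listed relative of the members, by list, with bars for the standard error derived from the edgeR F statistic. Values run from -6.84 (Aldh1a2, retinoid list) to 8.71 (Piwil2, germline list), and only the cornified envelope and DNA methylation lists have all their points on the higher side. The cornified envelope points include Sprr2a3, from the locus of the Sprr members. Of all fitted genes, 49.7% were higher.

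The thresholds cut through a continuum. Just inside, Sprr2a2 had a KMF library at 15 counts and an ID8 library at 3, and Lgals12 had 19 and 3. Just outside lay 18 protein-coding genes with an ID8 library at 4 or 5 counts. Among those were Rnf183 with 171, 288 and 228 counts against 1, 4 and 0 in ID8, and Tjp3 with 143, 97 and 91 against 4, 5 and 5.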

How the data were processed

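RNA of 3 ID8 and 3 KMF tumorsphere libraries was analysed from 1 deposited table. The submitters' processing notes name CASAVA 1.8, STAR 2.5, DESeq2 and the build mm10, while the study's methods name TopHat2 and DESeq2. The counting tool, annotation release and use of strand are not given in the sources used here. The table holds raw counts per gene, which the authors did not normalize, deposited gene lengths, and FPKM, which the authors scaled to gene length and fragments on genes. It also holds the authors' own comparison (line means, log2 fold change, p-value and adjusted p-value), which was not used, and lists only genes that this comparison had called. A total of 14 symbols that a spreadsheet had turned into dates were restored from the identifiers. Of the 7320 identifiers, 7286 overlapped their position in GENCODE M21 (GRCm38). The members and the gene lists were chosen with earlier results of these data known.

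Library totals were recovered from count, FPKM and length. A floor of 3 counts corresponds to 0.0903 to 0.13 CPM in a library, and intervals cover counting error only, without molecular identifiers. Counts were fitted with edgeR 4.0.16 (R 4.3.3; glmQLFit and glmQLFTest, two-sided, TMM, filterByExpr, which removed 353 genes) with Benjamini-Hochberg adjustment over 6967 genes, and called at an adjusted p under 0.05. P-values measure the spread between cultures of 1 line each. The standard errors given are the absolute log2 fold change divided by the square root of the edgeR F statistic. Libraries of the same line differed by more than sampling noise (chi-square per degree of freedom at least 19.9). On simulated data of 7320 genes for this comparison, the step called 81 of 100 genes changed 2-fold and 97 of 100 changed 4-fold, with 11 unchanged genes called. Alternatives were DESeq2 1.42.0, other scalings and filters, a wider adjustment, a replicate block and leaving out each library. Named relatives are, per list, the called genes with the largest and smallest log2 fold change, and named neighbours are genes called within 100 kb of a member midpoint. Other genes named were chosen after their values were seen. Promoter windows are from RefSeq, and transcripts from GENCODE. Python 3.11.15, pandas 2.3.3, scipy 1.17.1 and matplotlib 3.10.9 were also used.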

Additional observations from a re-analysis of the deposited data

How the results depend on the processing

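The number of members follows its thresholds. It was 28 with an ID8 ceiling of 3 counts, 46 with a ceiling of 5 and 11 with a ceiling of 1, and 15 with a KMF minimum of 30 counts. It was 41 with a minimum of 10, 19 with the thresholds in CPM, and between 31 and 39 with 1 library left out in turn. The counts of neighbours depend on the window, with 45 higher and 31 lower within 250 kb and 139 higher and 131 lower within 1000 kb. The direction of the members is fixed by the thresholds.

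Replicate numbers did not pair the samples, since the correlations of same-numbered samples were 0.0765, -0.133 and 0.0882. With the replicate number as a block, 6810 listed genes were called (6956 without), 92 relatives (96 without), and 74 neighbours higher and 66 lower. Without each library in turn, 6434 to 6789 genes were called. DESeq2 called 7248 and upper quartile scaling 6387, the latter shifting the median log2 fold change by -0.11 and the share of calls higher in KMF from 49.8% to 45.2%. Among named relatives and neighbours, 27 alternative values lost the call, all of them for Arc, Cdkn1a, Nsdhl and Sbsn, and none changed sign. At 15 to 727 counts in KMF and 0 to 3 in ID8 per library, the members' ratios have wide intervals. In an alternative chosen after seeing the data, leaving out 1 ID8 library moved the ratio by over 1.5 times, or left 0 ID8 counts, for 15 of the 23 members with a ratio, and leaving out 1 KMF library did so for 0.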

Other observations

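Genes of other types also met the count thresholds. They were the antisense gene Grin1os and the lincRNA genes Fendrr, Gm26747, RP24-98O21.6 and RP24-72G22.2. Gm16194, a lincRNA gene near Rab44, had 0 counts in every ID8 library and 2, 7 and 6 in KMF, which is under the minimum.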
